A study of Mus musculus with 4 samples.

Results

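This report compares acetylated histone H4 in LPS-treated macrophages with and without HDAC3. Overlapping peaks of the LPS-treated HDAC3 KO list (45589 peaks) and the LPS-treated wt list (39550 peaks) were merged, which gave 50004 regions from 85139 of the 175801 peaks in the series. Merging all 4 lists in the same way gives 62522 regions, which are drawn differently and do not contain the 50004 as a subset. Chromatin immunoprecipitation and sequencing (ChIP-seq) with an antibody to acetylated H4 was done on bone marrow-derived macrophages of C57BL/6 mice at day 7 of differentiation. The wt cells were HDAC3 +/-, so the controls had also lost a copy of the gene, and the KO cells were HDAC3 -/-. Both had been given lipopolysaccharide (LPS) at 100 ng/ml for 4 h, and the untreated lists of the same genotypes (41956 peaks in HDAC3 KO and 48706 in wt) serve here as separate libraries that played no part in forming the regions. How the allele was deleted and how many animals gave cells are not stated in the labels.

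Acetylation of lysines in the tail of histone H4 loosens chromatin and is read by bromodomain proteins at active promoters and enhancers. HDAC3 removes such acetyl groups as the enzyme of the NCoR and SMRT corepressor complexes, which DNA-binding repressors bring to their target sites. LPS, sensed by the receptor TLR4, makes macrophages switch on cytokine, chemokine and interferon-response genes, and many of their enhancers gain histone acetylation as they do so. No gene annotation of the files' build, mm9, was used here, so regions are given by position and no gene is attached to them, and the labelled cell type and the HDAC3 deletion were not checked against marker loci.

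Each group had 1 library. Every difference below is therefore between a pair of libraries, with no spread between replicates and no test. Intervals in parentheses are exact (Clopper-Pearson) 95% binomial intervals for shares and order-statistic intervals of the same level for medians; they cover counting error only, and neighbouring regions are not independent. Read depth is unknown. Less acetylation, fewer reads and a less efficient immunoprecipitation cannot be told apart in peak lists.

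Of the 50004 regions, 26173 (52.3%, 51.9 to 52.8%) were called in both LPS lists and are termed shared. HDAC3 KO alone had a peak in 16101 regions, 32.2% of all (31.8 to 32.6%). The wt list alone had one in 7730 regions, 15.5% (15.1 to 15.8%). Regions called in HDAC3 KO alone thus outnumbered those called in wt alone by a ratio of 2.08. Cutting the HDAC3 KO list to as many of its highest-scored peaks as the wt list holds brought the ratio to 1.31, and taking the 20000 highest-scored peaks of each list brought it to 1.21.

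The HDAC3 KO peaks covered 50.4 Mb and the wt peaks 37.4 Mb. Both lists covered the same 30.4 Mb, which was 60.3% of the HDAC3 KO length and 81.3% of the wt length. Within shared regions, a further 8.83 Mb was covered in HDAC3 KO alone and 2.95 Mb in wt alone. Regions of a single list added 11.2 Mb in HDAC3 KO and 4.04 Mb in wt. The surplus of 13.0 Mb in HDAC3 KO therefore came to 45.2% from longer coverage of regions that wt also had and to 54.8% from regions of a single list.

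**Figure D1:**
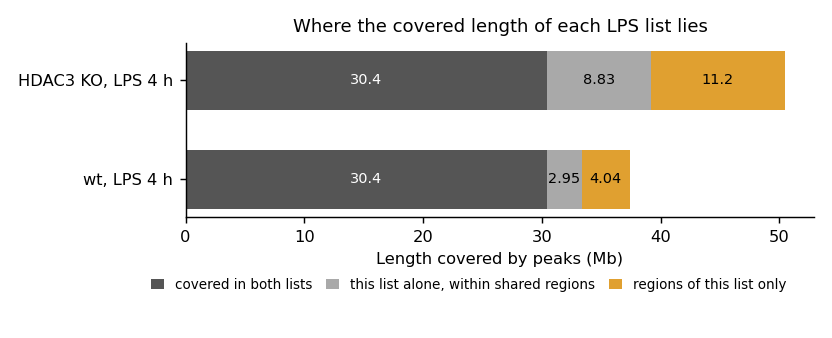
Stacked bars of the length covered by peaks (Mb) in the 2 LPS lists, 1 library each: bases covered in both lists, bases covered by this list alone inside shared regions, and bases in regions of this list only. The common 30.4 Mb makes up most of the wt bar, while HDAC3 KO has 8.83 and 11.2 Mb beyond it.

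In shared regions, acetylation peaks were moderately longer without HDAC3. The median covered length was 1197 bp in HDAC3 KO (quartiles 760.0 and 1853) and 991 bp in wt (628 and 1586). Region by region, the median log2 ratio of covered length, HDAC3 KO over wt, was 0.18 (0.17 to 0.18), a ratio of 1.13, with quartiles of -0.06 and 0.52. HDAC3 KO covered more in 18150 shared regions, wt in 7988, and they were equal in 35. This ratio is smaller than that of the whole lists (log2 0.43): once covered length was divided by each list's total, the median became -0.25.

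HDAC3 KO covered at least 2-fold more in 2454 shared regions (9.38%), and wt covered at least 2-fold more in 438 (1.67%). In the first group the median lengths were 1408 bp in HDAC3 KO and 513 bp in wt, and in the second 451 and 1167 bp. The order of these counts depended on the scale, since after division by the total of each list they were 973 and 1417. The ratio was larger among weak regions than among strong ones. A peak's strength is given here as the percentile rank of its score within its own list, from 0 for the lowest to 100 for the highest, and a region takes the rank of its highest peak. Among shared regions whose mean rank over both lists was between 40 and 50, the median log2 ratio was 0.29 and 18.0% were at least 2-fold longer in HDAC3 KO. That share was the highest of any step of rank. At mean ranks up to 10 the median was 0.29 and the share 10.5%, and at 10 to 20 they were 0.25 and 10.0%. Among those with a mean rank above 90 the median was 0.11, and 0.701% were 2-fold longer in HDAC3 KO. The share at least 2-fold longer in wt was 0.697% up to 10, 3.58% at 40 to 50 and 0.0561% above 90.

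**Figure D2:**
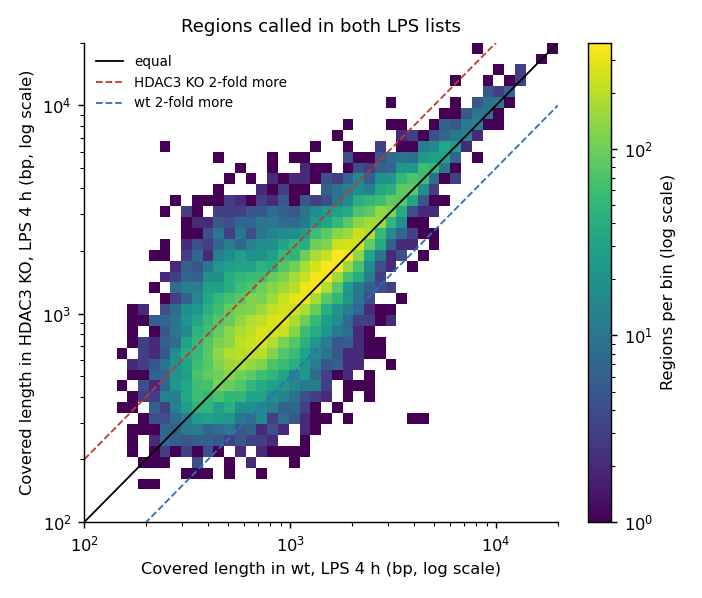
Covered length (bp, log axes) of the 26173 shared regions in wt (x) and HDAC3 KO (y), 1 library each; colour gives the number of regions per bin on a log scale, the solid line marks equal length and the dashed lines a 2-fold difference. More regions lie above the line of equality (18150) than below it (7988), and 2454 regions lie at or beyond the upper dashed line against 438 at or beyond the lower one.

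The way peaks met each other differed between the lists. In 19814 shared regions (75.7%) a single HDAC3 KO peak met a single wt peak, and there 97.6% of the wt bases (median) were also covered in HDAC3 KO, while 83.0% of the HDAC3 KO bases were covered in wt. The HDAC3 KO peak reached beyond the wt peak on both sides in 8054 of these regions (40.6%), by a median of 133 bp on the left and 140.0 bp on the right. The wt peak reached beyond on both sides in 2836 (14.3%), by 85.0 and 79.0 bp. In the remaining 8924, each list reached further on a different side or an edge coincided.

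Some peaks that stood apart in wt were a single peak in HDAC3 KO. A single HDAC3 KO peak spanned 2 or more wt peaks in 3378 shared regions (12.9%), with up to 7 wt peaks under it. The reverse, a single wt peak spanning 2 or more HDAC3 KO peaks, was seen in 1739 (6.64%), with at most 4. The joined regions ranked above the median of shared regions in both lists, and higher in the list that joined them. The median rank was 84.3 in HDAC3 KO and 71.6 in wt for the first kind, and 71.5 and 79.8 for the second. Over all shared regions it was 68.0 in HDAC3 KO and 63.4 in wt.

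Scores were compared by rank. The median rank of shared regions was 68.0 in HDAC3 KO and 63.4 in wt, and the median difference, HDAC3 KO minus wt, was 1.38 points (1.20 to 1.58). That sign was not stable: with the HDAC3 KO list cut to the wt number of peaks the median was -0.79, and with 20000 peaks of each list it was -1.69. Single regions differed much more. A rank at least 25 points higher in HDAC3 KO was found in 3664 shared regions (14.0%), and at least 25 points higher in wt in 1756 (6.71%). This order was not stable either: the counts were 2724 and 2412 with the HDAC3 KO list cut to the wt number of peaks, and 1574 and 1686, in the opposite order, with 20000 peaks of each list. Of the 2454 regions with at least 2-fold more covered length in HDAC3 KO, 1506 also ranked at least 25 points higher there, as 297 of the 438 did for wt. The lists differ in length, so a rank difference describes a region's place in each list and is no measured change.

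The 5 shared regions with the largest surplus in HDAC3 KO had peaks in all 4 libraries. At chr14:26278713-26297390, 3 HDAC3 KO peaks covered 18486 bp and 7 wt peaks covered 8440 bp with LPS. The untreated lists covered 16592 bp there in HDAC3 KO and 12602 bp in wt, so the least of the region was covered in LPS-treated wt. At chr9:61547266-61557193 a single HDAC3 KO peak covered 9928 bp against 3189 bp in 3 wt peaks, while the untreated lists were close, at 6264 bp in HDAC3 KO and 6053 bp in wt.

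At chr4:140978337-140984979 the HDAC3 KO peak of 6643 bp had a score of 3100, a value that 370 peaks of that list share and 29 exceed (rank 99.5), and wt had a peak of 257 bp at rank 27.9. Untreated cells had the same order, with 4613 bp at rank 99.3 in HDAC3 KO and 418 bp at rank 29.4 in wt. At chr19:5801843-5815205 both LPS lists ranked at the top (99.5 in HDAC3 KO and 99.2 in wt) and the lengths were 12550 and 6569 bp. At chr3:122041005-122048661, HDAC3 KO covered 7657 bp and wt 1915 bp with LPS, against 3318 and 2113 bp untreated. All 5 regions thus covered more in HDAC3 KO in the untreated lists too.

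The 5 shared regions with the largest surplus in wt were between 3776 and 8137 bp wide, and those with the largest surplus in HDAC3 KO between 6643 and 18678 bp. At chr17:80898055-80902698, LPS-treated wt covered 4644 bp with a peak of rank 98.0, and HDAC3 KO covered 296 bp at rank 2.88. Untreated wt had 403 bp there and untreated HDAC3 KO had no peak. At chr16:16036891-16040666 the lengths with LPS were 3776 bp in wt and 325 bp in HDAC3 KO, and untreated 1785 bp and none. In both regions the HDAC3 KO peak was small and low in its list.

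The other regions with a large wt surplus kept a sizeable peak in HDAC3 KO. At chr10:87795894-87800449, wt covered 4556 bp and HDAC3 KO 1840 bp with LPS, and 1632 and 640 bp untreated. At chr4:43464311-43469155 the values were 4845 and 2198 bp with LPS, and 1823 and 664 bp untreated. At chr11:43194395-43202531 they were 8137 and 5543 bp with LPS, and 4146 and 3170 bp untreated. In all 5 regions untreated wt covered more than untreated HDAC3 KO.

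The largest rank differences, among shared regions with at least 500 bp covered in both lists, were shared with the untreated lists in some regions only. In HDAC3 KO the leading region was chr11:100589891-100595873, a peak of 5983 bp at rank 95.2 over 2 wt peaks that covered 834 bp at rank 5.02. No peak was called there in either untreated list. At chr2:92323961-92326113 the ranks were 93.6 in HDAC3 KO and 4.83 in wt with LPS, and 85.2 and 74.8 untreated. At chr18:60767970-60771194 they were 90.6 and 1.63 with LPS, and 15.5 and 27.0 untreated.

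Of these 5 regions, 2 covered more in HDAC3 KO with LPS and more in wt when untreated. At chr9:61359453-61362425, HDAC3 KO covered 2973 bp and wt 1515 bp with LPS, and 1890 and 2214 bp untreated. By rank this region did not reverse, with 91.9 in HDAC3 KO and 2.52 in wt with LPS, and 73.8 and 60.9 untreated. At chr13:56682150-56684118 the values were 1969 and 507 bp with LPS, and 566 and 1236 bp untreated. The untreated ranks there were 59.3 in HDAC3 KO and 63.8 in wt. Untreated lengths count only bases inside the region. With 1 library per group, the reversal was not tested.

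In the other direction, the rank was 82.9 in wt and 2.54 in HDAC3 KO at chr9:57764865-57766230, 85.5 and 7.81 at chr2:166447632-166449714, and 76.3 and 0.213 at chr7:120195624-120197309. It was 88.7 and 13.9 at chr13:42394506-42396777, and 76.7 and 2.76 at chr11:70006400-70007695. Neither untreated list had a peak at 3 of these 5 regions. The chr2 region was called in both (rank 38.1 in wt and 12.8 in HDAC3 KO), and the chr11 region in untreated wt alone (rank 72.6).

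Regions called in a single LPS list were short and weak beside shared ones. The median width was 599 bp (quartiles 439 and 833) for HDAC3 KO alone and 465 bp (359 and 622) for wt alone, against 1307 bp for shared regions. That last width joins the peaks of both lists. The length covered in shared regions by each list had medians of 1197 bp in HDAC3 KO and 991 bp in wt. Their median rank was 25.8 (25.3 to 26.2) in the HDAC3 KO list and 21.8 (21.2 to 22.3) in the wt list. A rank of at least 50 was reached by 2809 regions of HDAC3 KO alone (17.4%) and 845 of wt alone (10.9%). A rank of at least 90 was reached by 63 (0.391%) and 11 (0.142%).

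Regions of a single list lay at widely varying distances from shared regions. No reference share, such as that of shared regions near another one, was set beside these values. Nearness is therefore not shown to be particular to regions of a single list. The median distance to the nearest shared region was 4686 bp (quartiles 533 and 20897) for HDAC3 KO alone and 5948 bp (594 and 27769) for wt alone. These medians depended on the peaks used and on how they were merged, and were 12642 and 16690.0 bp with 20000 peaks of each list and 10590.0 and 12846 bp with gaps of up to 500 bp merged. Within 5000 bp of a shared region lay 8199 regions of HDAC3 KO alone (50.9%, 50.1 to 51.7%) and 3668 of wt alone (47.5%, 46.3 to 48.6%). Within 500 bp lay 3941 (24.5%) and 1822 (23.6%). Joining peaks across gaps of up to 500 bp left 9240 regions of HDAC3 KO alone and 4830 of wt alone.

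**Figure D3:**
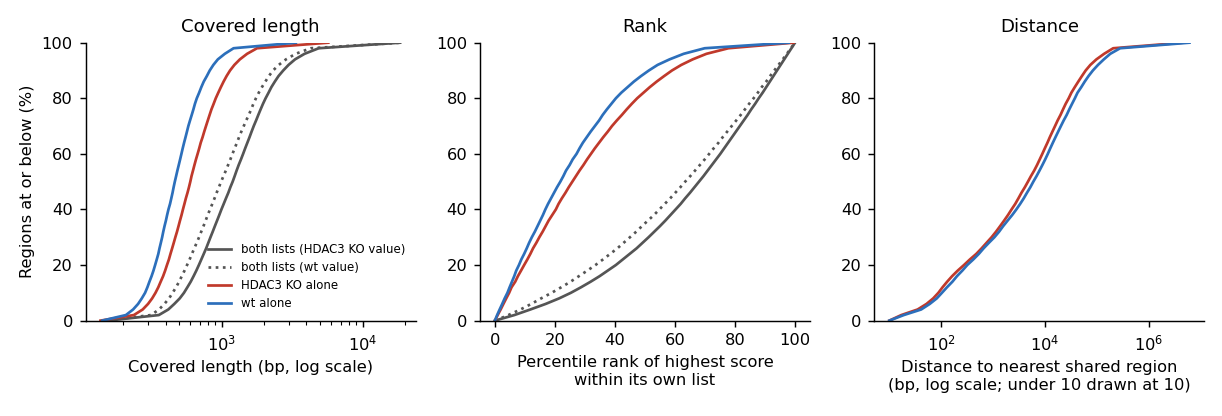
Cumulative share of regions (%) by covered length (bp, log axis), by percentile rank of the highest score within the list, and by distance to the nearest shared region (bp, log axis), for regions called in both LPS lists (grey, with each list's value), in HDAC3 KO alone (red) and in wt alone (blue). Regions of a single list are shorter and rank lower than shared ones, and those of HDAC3 KO alone are longer than those of wt alone (medians 599 and 465 bp) at similar distances.

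The shared regions beside them differed between the classes. Where a region of HDAC3 KO alone lay within 500 bp of a shared region, that shared region had a median log2 ratio of 0.36, and 18.5% were at least 2-fold longer in HDAC3 KO, beside 9.38% of all shared regions. Beside regions of wt alone the median was -0.02, with 2.85% at least 2-fold longer in HDAC3 KO and 5.38% at least 2-fold longer in wt. Both come from the same pair of lists as the regions themselves, so this describes how the differences lie along the chromosome and is no separate evidence of them.

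Regions of a single list also followed each other. Runs of 3 or more neighbouring regions called in HDAC3 KO alone, with no other region between them, held 7308 of the 16101 (45.4%), and such runs held 1797 of the 7730 of wt alone (23.2%); the classes differ in size, which alone moves this share. The longest run, picked after its values were seen, lay at chr18:60828221-60927522 and held 27 regions of HDAC3 KO alone in 99302 bp, with a median rank of 60.4. Of the 27, 21 overlapped a peak of untreated HDAC3 KO and 15 a peak of untreated wt. The longest run of wt alone was of another kind. It held 16 regions spread over 640273 bp at chr2:10294045-10934317, with a median rank of 47.0, and untreated wt had a peak in 4 of them and untreated HDAC3 KO in none.

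The untreated libraries gave a separate view of the regions of a single list. Peaks of untreated HDAC3 KO overlapped 5693 of the 16101 regions of HDAC3 KO alone (35.4%, 34.6 to 36.1%), and those of untreated wt 4821 (29.9%, 29.2 to 30.7%). The untreated wt list holds more peaks than the untreated HDAC3 KO list but covers less sequence (35.4 against 36.4 Mb). At regions of wt alone the order was reversed, with untreated HDAC3 KO calls at 1595 of 7730 (20.6%, 19.7 to 21.6%) and untreated wt calls at 2626 (34.0%, 32.9 to 35.0%). Over shared regions the shares were 75.7% for untreated HDAC3 KO and 80.2% for untreated wt. A region of HDAC3 KO alone was called in the untreated HDAC3 KO list but not the untreated wt list in 2223 cases (13.8%) and the opposite in 1351 (8.39%). For wt alone these were 365 (4.72%) and 1396 (18.1%). These orders held under the 6 other ways of choosing or merging peaks that were tried.

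The gap between the untreated genotypes widened with rank. Among regions of HDAC3 KO alone at ranks up to 10, 24.8% (23.3 to 26.3%) were called in untreated HDAC3 KO and 22.5% (21.0 to 23.9%) in untreated wt. At ranks of 70 to 80 the shares were 58.0% (53.1 to 62.8%) and 40.0% (35.3 to 44.9%), and above 90 they were 79.4% (67.3 to 88.5%) and 44.4% (31.9 to 57.5%). Shared regions ranked above 90 in HDAC3 KO were called in 93.4 and 94.7%. Regions of wt alone also showed a wider gap at higher ranks, with untreated wt above untreated HDAC3 KO. In untreated HDAC3 KO their share was 17.6% (15.9 to 19.3%) at ranks up to 10, 26.4% (23.2 to 29.7%) at ranks of 40 to 50 and 5.88% (0.72 to 19.7%) at ranks of 80 to 90. Above 90 it was 0 of 11 regions (0 to 28.5%), and the simpler limit of 3 counts in 11 is 27.3%. In untreated wt the shares were 26.8, 42.6 and 47.1% for the same ranks, and 45.5% (16.7 to 76.6%), or 5 of 11, above 90.

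**Figure D4:**
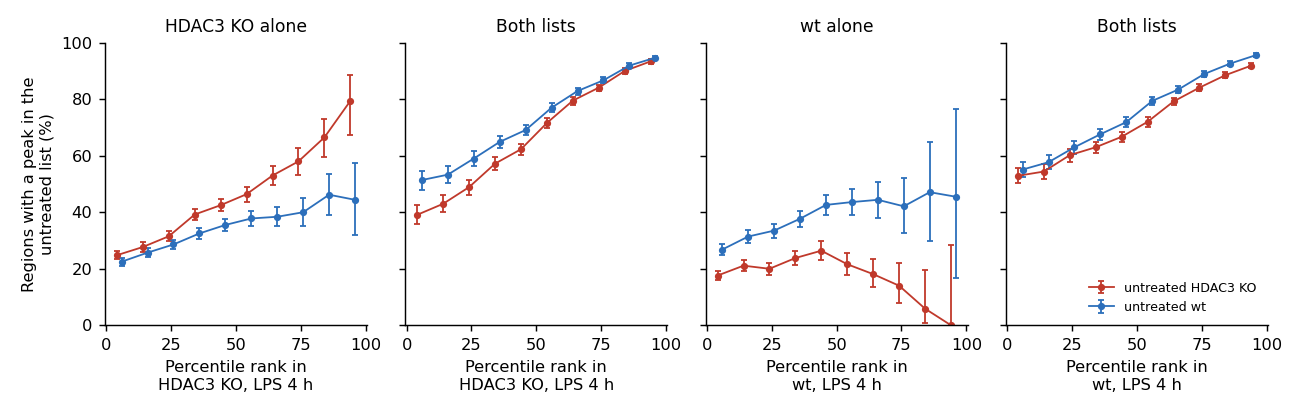
Share of regions (%) called in the untreated lists of HDAC3 KO (red) and wt (blue), by percentile rank in steps of 10 in the LPS list named under each panel, for regions of HDAC3 KO alone, shared regions, regions of wt alone and shared regions again; bars are exact 95% binomial intervals over regions of 1 library each. The red and blue points separate with rank in the panels of a single list (79.4 against 44.4% above 90 in HDAC3 KO alone) and lie close together at high ranks in the shared panels (93.4 and 94.7% above 90 in HDAC3 KO).

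A majority of the regions of a single list had no untreated call at all. This held for 9057 regions of HDAC3 KO alone (56.3%) and 4739 of wt alone (61.3%), beside 4103 shared regions (15.7%).

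For shared regions, covered length could be compared in the untreated lists wherever both had a peak, which was so in 18726 of the 26173. Untreated peaks were cut at the edges of the region, while LPS peaks lie wholly inside it. Lengths with and without LPS are therefore not measured alike, and the effect of the cut on the untreated ratios was not tested. Over these, the median log2 ratio in untreated cells was 0.05 (0.04 to 0.05), and untreated HDAC3 KO covered at least 2-fold more in 760 (4.06%) and untreated wt in 613 (3.27%). Among the 1546 of them that were at least 2-fold longer in HDAC3 KO with LPS, the untreated median was 0.17 (0.12 to 0.20), 63.9% were longer in untreated HDAC3 KO, 188 (12.2%, 10.6 to 13.9%) were at least 2-fold longer there, and 54 (3.49%, 2.63 to 4.53%) were at least 2-fold longer in untreated wt. Among the 168 that were at least 2-fold longer in wt with LPS, the untreated median was -0.04 (-0.18 to 0.04), 15 (8.93%, 5.08 to 14.3%) were at least 2-fold longer in untreated wt, and 12 (7.14%, 3.75 to 12.1%) in untreated HDAC3 KO. The intervals of the latter pair overlap widely. With LPS the medians of these groups were 1.29 and -1.22, by the choice of the regions, so the larger size with LPS is no finding.

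Ranks were compared in the same way. Over the 18726 regions the median rank difference was 1.34 points with LPS and -1.71 points (-1.92 to -1.53) untreated. The longer list was that of HDAC3 KO with LPS and that of wt untreated. The untreated sign was not tested with equal numbers of peaks. Where HDAC3 KO ranked at least 25 points higher with LPS (2239 regions), the untreated median was 1.33 points (0.51 to 2.33). Where wt ranked at least 25 points higher (734 regions), it was -10.9 points (-13.4 to -9.32). Across the 18726 regions the log2 ratios with LPS and untreated correlated with r = 0.13 (Pearson) and rho = 0.12 (Spearman). Regions share their libraries and are not replicates, so these values only describe how loosely the differences were related.

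The strongest regions of HDAC3 KO alone with no wt peak within 5000 bp were broad peaks that, in 9 of 10 cases, were also called in untreated HDAC3 KO. At chr11:31720067-31724064 the HDAC3 KO peak of 3998 bp ranked at 97.3 with LPS. Untreated HDAC3 KO covered 2907 bp of it at rank 97.1 and untreated wt 1309 bp at rank 58.8. At chr8:124315304-124317770 the HDAC3 KO peak with LPS was 2467 bp wide. Untreated HDAC3 KO covered 2071 bp of it (rank 99.7) and untreated wt 823 bp (rank 80.0). At both, wt had a peak without LPS and none with it.

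A similar order was found at chr12:112693330-112696920, with 3591 bp in LPS-treated HDAC3 KO, 3408 bp in untreated HDAC3 KO and 1099 bp in untreated wt. It was found at chr1:137554595-137557470 as well, with 2876, 2713 and 506 bp. At chr18:60905274-60909685, inside the long run described above, the values were 4412, 3674 and 1593 bp. At chr10:24627799-24631243 the untreated peaks covered little of the region, 847 bp in HDAC3 KO and 399 bp in wt, against 3445 bp with LPS in HDAC3 KO.

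Of the 10, 3 were called in both HDAC3 KO lists and in neither wt list. At chr1:174519271-174521966 the HDAC3 KO peaks covered 2696 bp with LPS (rank 97.2) and 940 bp without. At chr9:40857220-40861179 they covered 3960 and 1252 bp, and at chr17:33061069-33062935 they covered 1867 and 1573 bp with ranks of 95.6 and 98.4. The peak at chr10:92511191-92513241, 2051 bp at rank 97.0, had no untreated counterpart in either genotype and lay 110116 bp from the nearest shared region.

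Regions of wt alone at the top of the list showed the mirror image only in part. Of the 10 strongest with no HDAC3 KO peak within 5000 bp, none was called in untreated HDAC3 KO, and 4 were called in untreated wt. Those 4 were chr15:12596745-12598651 (1907 bp with LPS and 1775 bp without), chr6:124946787-124948483 (1697 bp in both), chr6:48486827-48488281 (1455 bp in both) and chr17:48282451-48283254 (804 and 588 bp). Untreated wt peaks covered all or nearly all of the first 3 regions and part of the last. Lengths without LPS count only bases inside the region, so an untreated peak may be wider than its value. The first 3 ranked at 93.9, 97.8 and 97.1 in untreated wt.

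The other 6 were called in LPS-treated wt and in no other library. Their leader, chr4:124467406-124469633, was 2228 bp wide at rank 97.9. It was followed by chr2:10899955-10902311 (2357 bp, rank 91.3), which lies in the long run on chromosome 2, chr15:79006835-79008550 (1716 bp, rank 91.1) and chr11:81427012-81428002 (991 bp, rank 90.2). The last 2 were chr15:82087046-82088785 (1740 bp, rank 89.7) and chr12:33962521-33964033 (1513 bp, rank 88.9). The chromosome 11 region was the most isolated, 381805 bp from any shared region.

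The widest region of HDAC3 KO alone lay at chrX:166409909-166415621, with 5713 bp and a score of 3100 (rank 99.5). Its nearest shared region was 76.0 bp away, and untreated HDAC3 KO covered 2810 bp of it while untreated wt covered none. The next, chr10:60209044-60213606, had 4563 bp at rank 92.0, and the untreated peaks there ranked at 78.9 in both genotypes, with 3189 bp in HDAC3 KO and 1638 bp in wt. The widest of wt alone was chr11:3091776-3095139, with 3364 bp at rank 83.0 and 2625 bp in untreated wt. It was followed by chr16:91864236-91866849 (2614 bp, with 1508 bp in untreated wt) and chr2:166450637-166453192 (2556 bp, with no untreated peak).

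The most isolated strong regions of HDAC3 KO alone were chr9:67271077-67272801, 208753 bp from a shared region, chr9:62474183-62476130, at 182065 bp, and chr13:96264021-96265463, at 118011 bp. They ranked at 92.1, 91.9 and 90.1 with LPS. Each had a peak in HDAC3 KO without LPS as well, covering 968, 364 and 1243 bp, and none in either wt list. Isolated regions with calls in both libraries of a genotype alone were thus found on both sides.

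**Figure D5:**
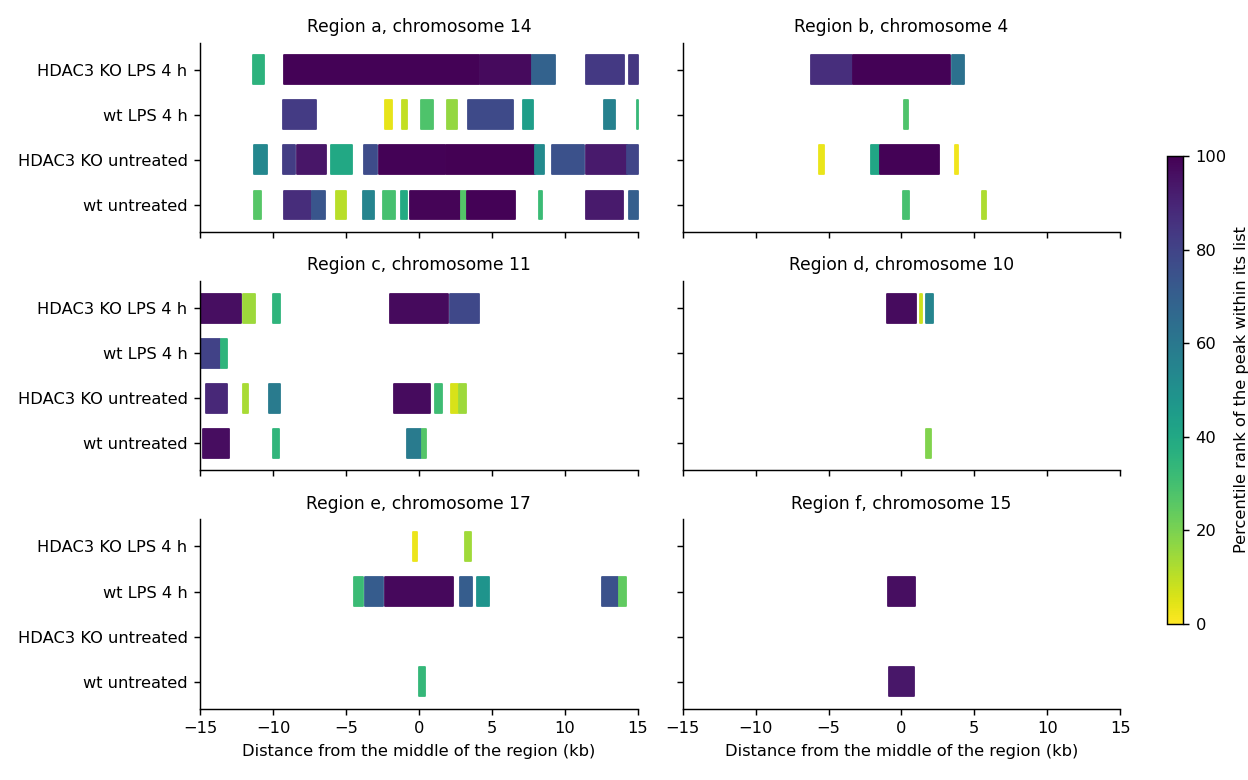
Peaks of the 4 lists within 15 kb of the middle of 6 regions named in the text (x axis, distance in kb), each bar a peak drawn to scale and coloured by its percentile rank within its list. Regions a (chromosome 14) and b (chromosome 4) are shared regions longer in HDAC3 KO, c (chromosome 11) and d (chromosome 10) are regions of HDAC3 KO alone, e (chromosome 17) is longer in wt and f (chromosome 15) is called in wt alone; d itself has no call in the other lists, and f has calls in the wt lists only.

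Over longer stretches, HDAC3 KO covered at least 5 kb more than wt in 653 of the 15640 windows of 50 kb with a peak in either LPS list (4.18%), and wt covered at least 5 kb more in 22 (0.141%). With covered length scaled to the wt total, a scaling added after seeing the data, the counts were 172 and 78. Untreated HDAC3 KO covered more than untreated wt in 504 of the 653 windows (77.2%) and in 1 of the 22, beside 42.9% of all windows. Over all windows the median untreated difference was 0 kb. Windows with equal untreated coverage count as not larger, so the remainder is not the share in which wt covered more.

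The window with the largest surplus in HDAC3 KO, chr10:18650001-18700000, held 19 regions of HDAC3 KO alone, 5 shared regions and none of wt alone. HDAC3 KO covered 29.2 kb of it and wt 3.65 kb with LPS, against 5.34 and 1.92 kb untreated. At chr11:8450001-8500000 there were 10 shared regions and 4 of HDAC3 KO alone, with 40.1 kb covered in HDAC3 KO and 18.6 kb in wt with LPS, and 18.1 and 13.5 kb untreated. At chr13:94900001-94950000 the lengths were 25.3 and 5.83 kb with LPS. Untreated cells had 25.9 kb in HDAC3 KO and 13.9 kb in wt, so wt covered less there with LPS than without.

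The windows with the largest surplus in wt had no region of HDAC3 KO alone. At chr4:43450001-43500000, wt covered 28.0 kb and HDAC3 KO 16.4 kb with LPS, and 14.3 and 9.55 kb untreated. At chr13:42450001-42500000 the values were 17.6 and 6.60 kb with LPS, and 2.08 and 0.23 kb untreated. At chr16:91850001-91900000 they were 16.2 and 5.96 kb with LPS, and 10.3 and 5.66 kb untreated. In each of these 3 windows wt covered more with LPS than without, and HDAC3 KO covered less than wt with and without it.

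The genotype difference was spread over all chromosomes. Regions of HDAC3 KO alone made up between 27.2% (24.6 to 29.9%, X chromosome) and 36.7% (34.2 to 39.2%, chromosome 18) of the merged regions of a chromosome. Regions of wt alone made up between 12.6% (11.5 to 13.7%, chromosome 11) and 20.8% (18.5 to 23.3%, X chromosome). The X chromosome had the lowest share of the first and the highest of the second, and 6.53% of its shared regions were at least 2-fold longer in HDAC3 KO, the lowest value of the 20 chromosomes.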

How the data were processed

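Per the file headers, the authors called peaks with MACS for each H4 acetylation library against an input library; per the submitters' processing notes, Bowtie and build mm9 were used. Versions and settings are not given in the sources used here. Each deposited list gives a start, an end and a score per peak; the deposited score is the authors' own, has no stated scale, starts at 50.0 and was used only to rank peaks within a list (mid-ranks for ties). Depth per sample is unknown.

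Peaks of the 2 LPS lists overlapping by at least 1 bp were merged into regions with Python 3.11.15, numpy 2.4.6 and pandas 2.3.3. Covered bases, ranks, distances to the nearest shared region and overlap with untreated peaks were computed per region, and intervals with scipy 1.17.1. Untreated lengths at a region count only the bases inside it, so untreated peaks that reach past its edges were cut there. Figures used matplotlib 3.10.9. Regions and classes were tested on simulated lists. Coordinates are mm9, counted from 1. No test was possible with 1 library per group.

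Named regions are, per direction, the 5 shared regions with the largest difference in covered bp, the 5 with the largest rank difference (at least 500 bp in both lists), the 10 highest-scored regions of a single list over 5000 bp from the other list, the 3 widest, the 3 farthest from a shared region at rank 90 or above, and 3 windows of 50 kb. The comparison, thresholds and rules were chosen with earlier results of these data known. Gene lists, cell type markers, motifs and sequences needed an mm9 genome or annotation and were not used here.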

Additional observations from a re-analysis of the deposited data

Results flagged for a closer look

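Between treatments, some genotype differences had opposite signs in LPS-treated and untreated cells; with 1 library per group, none of these reversals was tested. The number of peaks was 15.3% higher in HDAC3 KO than in wt with LPS, and the difference was -13.9% when untreated. Total covered length did not reverse: it was 34.8% higher in HDAC3 KO with LPS and 2.99% higher untreated. The untreated wt peaks were shorter, with a median width of 590 bp against 691 bp in untreated HDAC3 KO. Over the 18726 shared regions called in all 4 lists, the median rank difference, HDAC3 KO minus wt, was 1.34 points with LPS and -1.71 points untreated. The positive sign with LPS did not hold over all shared regions once the LPS lists had equal numbers of peaks, where the median was -0.785, or -1.69 with 20000 peaks of each list. Untreated, the wt list was the longer one (48706 peaks against 41956 in HDAC3 KO). The untreated sign was not tested with equal numbers of peaks. At chr9:61359453-61362425, HDAC3 KO minus wt was 1458 bp of covered length with LPS and -324 bp untreated. By rank HDAC3 KO was higher there in both, at 91.9 against 2.52 with LPS and 73.8 against 60.9 untreated. At chr13:56682150-56684118 the difference in covered length was 1462 bp with LPS and -670.0 bp untreated, where the ranks were 59.3 in HDAC3 KO and 63.8 in wt. Untreated lengths count only bases inside the region.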

How the results depend on the processing

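No paired analysis was possible because each group had 1 library, so none was left out. Settings with fewer peaks lower the numbers of regions by construction, and the cause of other shifts was not tested. When each list was limited to its upper scores, from its median up, 14905 regions were shared, 6665 of HDAC3 KO alone and 3062 of wt alone; the median log2 ratio was 0.165, 1118 and 211 regions were 2-fold longer in HDAC3 KO and in wt, the median rank difference was 0.792 and 2112 regions ranked 25 points higher in HDAC3 KO and 1189 in wt. Within 5000 bp of a shared region lay 35.1% of HDAC3 KO alone and 32.8% of wt alone. Untreated HDAC3 KO and wt had calls at 39.6 and 35.5% of HDAC3 KO alone, and at 24.0 and 39.4% of wt alone.

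With 20000 peaks per list, taken from the top by score, these values were 14164, 4830 and 3996 regions, 0.167, 1083 and 198, -1.69 (a reversed sign), 1574 and 1686 (also the opposite order), 34.3 and 31.2%, 40.9% of HDAC3 KO alone in untreated HDAC3 KO and 26.9% of wt alone in untreated HDAC3 KO.

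With the HDAC3 KO list cut to the wt number of peaks, the median rank difference was -0.785, also reversed, 2724 and 2412 regions ranked 25 points higher in HDAC3 KO and in wt, 50.0 and 45.9% lay within 5000 bp, and untreated calls were at 39.1 and 32.7% of HDAC3 KO alone and 23.2 and 36.4% of wt alone. With gaps of up to 500 bp merged, there were 9240 regions of HDAC3 KO alone and 4830 of wt alone, the medians were 0.221 (log2) and 0.999 (rank), 2651 and 1251 regions ranked 25 points higher in HDAC3 KO and in wt, 34.0 and 30.5% lay within 5000 bp, 31.4% of HDAC3 KO alone had a call in untreated wt, and wt alone had calls at 19.6 and 37.0%.

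Division by each list's total reversed the median log2 ratio to -0.252 and gave 973 and 1417 regions 2-fold longer in HDAC3 KO and in wt. Scaled windows, added after seeing the data, numbered 172 and 78. Requiring 50% overlap, or autosomes only, moved none of these results past its interval or by over 1.5 times. Of the 36 values for width, rank and distance of regions of a single list, 22 moved past their interval. A reversed sign was not possible for them, since these values are always positive. The median distance to a shared region was 4686 bp for HDAC3 KO alone and 5948 bp for wt alone, and became 12026 and 15360.0 bp with the upper scores, 12642 and 16690.0 bp with 20000 peaks, 5003 and 6630.0 bp with the HDAC3 KO list cut, and 10590.0 and 12846 bp with gaps merged.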
